A study of Mus musculus with 4 samples.

Results

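The genes described here are the Wnt ligands, their Frizzled and Lrp receptors, the R-spondins and the antagonists of the pathway, as measured in mouse skin treated with TCQA, a plant polyphenol in which quinic acid carries several caffeoyl groups. They were chosen by gene symbol alone: every Wnt, every Fzd, Sfrp1 to Sfrp5, Dkk1 to Dkk4, Rspo1 to Rspo4, and Lrp5, Lrp6, Wif1, Sostdc1 and Shisa2. This gave 71 probe sets of 45 genes, called Wnt probe sets and Wnt genes below, out of 28898 probe sets that name 1 gene and 45037 probe sets in all. They divide into 28 probe sets of 19 ligands, 23 of 12 receptors, 5 of 4 R-spondins and 15 of 10 antagonists. No probe set carries the symbol Sfrp4 in the annotation used here. Sfrp3 is listed under its other symbol, Frzb, which the rule does not take in, and its 2 probe sets (log2 fold changes of -0.32 and -0.01) are counted with the cell surface genes below. In addition, 3 probe sets that name Sfrp1 together with Serinc3 were left out by the rule. All mice were 8-week-old C3H males whose dorsal hair, then in the resting phase, was clipped before topical treatment. The control group received the vehicle, given as Milli-Q water, and the TCQA group received 1% TCQA, which had been dissolved in ethanol and diluted in water. Skin was taken after the hair of the area had been plucked, at day 30 by the labels and at day 37 by the study's time course. Each group has 2 Affymetrix mouse PM expression arrays, Control 1 and Control 2, and TCQA 1 and TCQA 2. The study used 5 mice per group. Neither the labels nor the methods say which mice an array held, and the p-values therefore rest on differences between arrays that may be technical.

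Wnt proteins are secreted lipid-modified ligands that bind a Frizzled receptor, and in the canonical branch also Lrp5 or Lrp6, so that β-catenin escapes degradation and activates its target genes. R-spondins strengthen the signal by keeping Frizzled receptors on the cell surface. Sfrp proteins and Wif1 bind the ligands, Dkk1 and Sostdc1 act on the Lrp co-receptors, and Shisa proteins hold Frizzled receptors inside the cell. In skin this pathway drives the entry of the hair follicle into its growth phase and supports the melanocytes that color the hair.

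One control array stood apart from the other 3 arrays. The median of all probe sets was 2.30 on Control 1, a log2 value as are all levels below, and between 2.49 and 2.55 on the other arrays. Markers of skin were bright on Control 1 and less so on the others. Krt14, a keratin of basal keratinocytes, had 8.67 there and from 2.37 to 2.86 on the others, and Col3a1, a dermal collagen, had 8.87 there and from 2.99 to 3.47 on the others. On the other arrays (Control 2, TCQA 1, TCQA 2) Krt14 exceeded 61.7%, 43.0% and 58.5% of all probe sets, against 99.3% on Control 1. The other keratinocyte markers differed in rank on these arrays. Krt5 exceeded 97.4%, 97.9% and 96.1% there, and Krt1 83.0%, 78.7% and 85.5%. Trp63 exceeded 77.6%, 76.1% and 69.4%, and Krt10 23.7%, 26.3% and 38.2%. For each marker gene the probe set with the highest mean over the 4 arrays was read, a choice that favors probe sets high on Control 1. With it, Control 1 was the highest array for 5 of 5 keratinocyte markers, 4 of 6 of dermal fibroblasts, 2 of 3 measured of adipocytes, 5 of 5 of skeletal muscle and 65 of 66 ribosomal protein genes, and for 2 of 5 immune and 2 of 4 endothelial markers. It was the highest for 0 of 5 markers of the hair follicle and 0 of 5 of melanocytes. For comparison, Control 1 was the highest array for 12621 of all 45037 probe sets and for 15 of the 71 Wnt probe sets (21.1%). It was the lowest array for 58.3% of all probe sets, so a low count among few markers does not set a cell type apart. The hair follicle markers were also dim, with a median between 1.38 (Control 1) and 1.70 (TCQA 2), below the median of all probe sets on each array. Whether Control 1 differed in hair follicles or melanocytes was not tested. The 5 muscle markers summed to 50.9 (Control 1), 11.8 (Control 2), 11.9 (TCQA 1) and 13.1 (TCQA 2), and the 5 keratinocyte markers to 39.6, 16.7, 16.1 and 16.1 in the same order. The reference genes moved with them, since Actb (β-actin) read 9.02 (Control 1), 2.58 (Control 2), 2.94 (TCQA 1) and 2.69 (TCQA 2), and Gapdh 11.02, 6.65, 6.32 and 6.37 in the same order. The part of RNA or array quality in this was not tested. For skin as a whole, a smaller number of cells of a type and less RNA per cell cannot be told apart.

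Of the Wnt genes, 1 probe set of the receptor Fzd2 was at least 2-fold higher with TCQA at an unadjusted p of at most 0.05, and none was lower. The 2-fold change is the study's criterion for the arrays and the p its general level of significance, and both together are called the thresholds of the study below. Across the whole array these thresholds were passed by 0.135% of probe sets on the higher and 0.122% on the lower side. By the 2-fold change of the means alone, 2 Wnt probe sets were higher (Fzd2 and Wnt2b, 2.82% beside 1.04% of all) and 6 lower (both of Shisa2 and Sostdc1, and 1 each of Wnt4 and Fzd7, 8.45% beside 11.3% of all). No Wnt probe set passed limma at an adjusted p of 0.05, where 0.0% of the 45037 probe sets did, and the adjusted p of the 71 probe sets lay between 0.923 and 0.995. At an unadjusted p under 0.05 there was 1 of 71 probe sets, and 141 of all 45037. The mean with TCQA was above that of the control for 49 probe sets (69.0%) and below it for 22, against 61.0% above over all probe sets. This split depended on the scaling, since 54.9% of the Wnt probe sets (56.0% of all) were above after quantile normalization and 53.5% (52.9% of all) after centring each array on its median. The median log2 fold change (TCQA minus control) was 0.12 over the 71 probe sets and 0.12 over all probe sets. Without Control 1 it was 0.0018 and -0.02, without Control 2 it was 0.30 and 0.33, without TCQA 1 it was 0.016 and 0.05, and without TCQA 2 it was 0.20 and 0.13. By role, the median was 0.16 for the ligands, 0.09 for the receptors, 0.12 for the R-spondins and 0.02 for the antagonists. Without Control 1 these medians were -0.0013, -0.07, -0.02 and 0.15. For 60 of the 71 probe sets (84.5%, and 88.1% of all) the group means differed by less than the 2 arrays of a group did. The median absolute difference between both control arrays was 0.66, and between both TCQA arrays it was 0.24.

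Both TCQA arrays lay above both control arrays for 11 of the 71 probe sets, which is 15.5% beside 17.9% of all probe sets. They lay below both for 7, or 9.86% beside 10.9% of all. The 11 were 2 of Fzd2 and 1 each of Wnt2b, Wnt6, Wnt9b, Fzd1, Fzd4, Fzd8, Fzd10, Dkk1 and Sfrp5, and the 7 were 1 each of Wnt4, Wnt9a, Fzd2, Fzd3, Fzd5, Fzd7 and Sostdc1. The gap between the groups was 1.15 for Fzd2, 0.61 for Fzd3 and 0.54 for Wnt2b, and at most 0.38 for the other 15. With 2 arrays a group the smallest p of an exact permutation test is 0.333.

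Among the ligands, Wnt2b had the highest log2 fold change and Wnt4 the lowest. Wnt2b, a canonical ligand related to Wnt2, read 1.79 (Control 1), 2.66 (Control 2), 3.20 (TCQA 1) and 3.47 (TCQA 2). Both TCQA arrays were above both control arrays. The control mean of 2.23 ± 0.61 (SD, n = 2) and the TCQA mean of 3.34 ± 0.19 (SD, n = 2) gave a log2 fold change ± standard error of 1.11 ± 0.44 (limma, adjusted p = 0.923). Its unadjusted p was 0.058 in limma, and after quantile normalization or centring it passed the thresholds of the study together with Fzd2. Wnt4, a ligand of kidney and reproductive tract development that is also made in epidermis, was measured by 2 probe sets. The first, 1450782_PM_at, read 5.85 (Control 1), 2.86 (Control 2), 2.64 (TCQA 1) and 3.02 (TCQA 2), with a log2 fold change ± standard error of -1.52 ± 1.06 (limma, adjusted p = 0.923). Control 1 alone was high, with Control 2 inside the range of the TCQA arrays. The second, 1441687_PM_at, had 4.002, 3.69, 3.57 and 3.38 in the same order, with both TCQA arrays below both controls and a log2 fold change of -0.37.

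Wnt7b, a ligand of the epidermis and the hair follicle, read 4.50 (Control 1), 5.46 (Control 2), 5.65 (TCQA 1) and 5.42 (TCQA 2) with the probe set 1420892_PM_at. Control 1 was low and the other 3 arrays lay close together. Control 1 was the lowest array for 43 of the 71 Wnt probe sets (60.6%, beside 58.3% of all probe sets). The probe set 1420892_PM_at exceeded 86.5% of all probe sets on Control 1 and 99.0%, 99.2% and 99.1% on the others. Of the reference genes on these others, Actb exceeded 51.4%, 65.2% and 58.1%, and Gapdh 99.8%, 99.7% and 99.7%. Levels of different probe sets are not comparable, so such a rank alone does not show a high transcript level. The log2 fold change of 1420892_PM_at was 0.56, and that of the other Wnt7b probe set was 0.14. Wnt3a, the ligand most used to activate β-catenin in culture, read 3.44 (Control 1), 4.63 (Control 2), 4.25 (TCQA 1) and 4.43 (TCQA 2). It was again lowest on Control 1, and both TCQA arrays were below Control 2. Wnt1, the founding member of the family, had 1.71, 2.58, 2.56 and 3.02 in that order and a log2 fold change of 0.65, with Control 2 between both TCQA arrays. Wnt9b, a canonical ligand, had 1.19, 1.54, 1.75 and 2.03 with the probe set 1451711_PM_at and a log2 fold change of 0.52. Both TCQA arrays were above both control arrays for this probe set, and for its other probe set, at 0.39, Control 2 was the highest array.

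The other ligands had log2 fold changes between -0.31 and 0.50. Wnt10b and Wnt10a, ligands tied to hair follicle growth, had 0.07 and 0.19. Wnt5a and Wnt11, ligands of the branch that does not act through β-catenin, had 0.03 and 0.02 (both probe sets of Wnt5a) and 0.06 (Wnt11). The highest were Wnt16 at 0.50, Wnt6 at 0.50 and 0.11, Wnt8a at 0.38, Wnt9a at 0.31 and -0.24, and Wnt8b at 0.30 with both of its probe sets. Wnt3 at -0.31 and Wnt7a at -0.23 with 1 of its probe sets were on the lower side, while the other Wnt7a probe set had 0.26, Wnt5b had 0.08 and 0.06, and Wnt2 had 0.04.

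**Figure D1:**
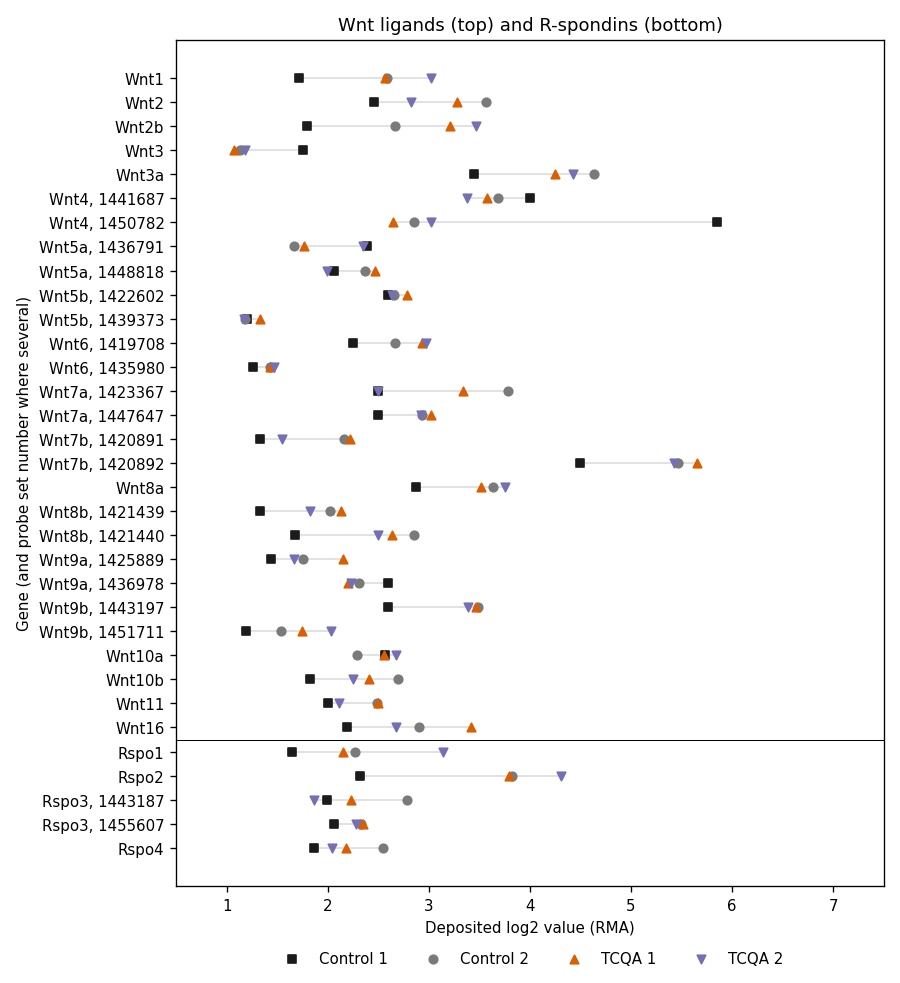
Deposited log2 value (x axis) of the 28 ligand and 5 R-spondin probe sets on each of the 4 arrays, with 1 symbol per array and a grey line from the lowest to the highest. Control 1 is the only high array for Wnt4 (5.85 with 1450782). It is the lowest array for Wnt2b (1.79) and Rspo2 (2.32), as it is for 60.6% of the Wnt probe sets and 58.3% of all.

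The R-spondins followed no common direction. Rspo2, an R-spondin linked to hair growth, read 2.32 (Control 1), 3.82 (Control 2), 3.80 (TCQA 1) and 4.31 (TCQA 2). Its log2 fold change ± standard error was 0.98 ± 0.62 (limma, adjusted p = 0.923), and against Control 2 alone the TCQA mean was 0.23 higher. Rspo1 had 1.65, 2.27, 2.15 and 3.14 in that order and a log2 fold change of 0.68, with TCQA 2 above and TCQA 1 below Control 2. Rspo3 had 1.99, 2.79, 2.23 and 1.87 with the probe set 1443187_PM_at, a log2 fold change of -0.34, and 0.12 with the other. Rspo4, an R-spondin needed for nails, had -0.09. For all 5 probe sets the groups overlapped.

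Among the receptors, Fzd2 was the Wnt gene that passed the thresholds of the study, and it did so with 1 of its 3 probe sets. Fzd2, a Frizzled receptor of the canonical and of other Wnt branches, read 1.92 (Control 1), 2.46 (Control 2), 3.60 (TCQA 1) and 3.88 (TCQA 2) with 1418532_PM_at. Both TCQA arrays were above both control arrays, and the arrays of each group lay closer together than the groups. The control mean of 2.19 ± 0.38 (SD, n = 2) and the TCQA mean of 3.74 ± 0.19 (SD, n = 2) gave a log2 fold change ± standard error of 1.55 ± 0.38 (limma, unadjusted p = 0.011 and adjusted p = 0.923), or 2.93-fold. The TCQA mean was 1.82 above Control 1 and 1.28 above Control 2. Its log2 fold change was 1.71 after quantile normalization and 1.46 after centring. Leaving out TCQA 1 or TCQA 2 gave 1.69 and 1.41 with an unadjusted p of 0.085 and 0.136 from limma, so that the thresholds of the study were then missed. The second probe set, 1418534_PM_at, read 3.59 (Control 1), 3.51 (Control 2), 3.70 (TCQA 1) and 3.70 (TCQA 2), a log2 fold change ± standard error of 0.15 ± 0.32 (limma, adjusted p = 0.938). The third, 1418533_PM_s_at, whose suffix marks possible matches to several transcripts, had 2.32, 1.90, 1.72 and 1.79 and a log2 fold change ± standard error of -0.36 ± 0.35 (limma, adjusted p = 0.923). The groups did not overlap for any of the 3 probe sets, with TCQA above the control for 2 of them and below it for 1.

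Fzd7, a Frizzled receptor closely related to Fzd2 in sequence, had opposite values with its 2 probe sets. With 1450044_PM_at it read 6.96 (Control 1), 3.29 (Control 2), 3.25 (TCQA 1) and 3.01 (TCQA 2), a log2 fold change ± standard error of -2.00 ± 1.27 (limma, adjusted p = 0.923). With 1450043_PM_at it had 2.51, 4.02, 4.07 and 3.75, a log2 fold change ± standard error of 0.64 ± 0.60 (limma, adjusted p = 0.923). Control 1 was thus the highest array with the first and the lowest with the second, and against Control 2 the TCQA mean differed by -0.17 and -0.11. Fzd6, a receptor that orients hair follicles in the skin, read 5.13 (Control 1), 3.06 (Control 2), 3.15 (TCQA 1) and 3.11 (TCQA 2) with 1417301_PM_at and a log2 fold change of -0.96, while its other probe set had 0.06. Fzd4, a receptor of vascular development, had 4.86, 2.74, 2.74 and 3.13 with 1419301_PM_at and a log2 fold change of -0.87, while its other probe set had 0.28. In both genes Control 1 alone was high with the first probe set and was the lowest array with the other.

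The remaining receptors had log2 fold changes between -0.81 and 0.76. Fzd10 read 4.50 (Control 1), 4.69 (Control 2), 5.06 (TCQA 1) and 4.91 (TCQA 2), and its log2 fold change was 0.39 with groups that did not overlap. Fzd8 had 2.80, 3.49, 4.11 and 3.69 and a log2 fold change of 0.76, also without overlap. Fzd3, which acts in planar polarity, had 6 probe sets, of which 1434788_PM_at, named after its values were seen, was lower on both TCQA arrays, with 4.14 (Control 1), 3.93 (Control 2), 3.13 (TCQA 1) and 3.32 (TCQA 2). Its log2 fold change ± standard error was -0.81 ± 0.33 (limma, adjusted p = 0.923), with -0.92 against Control 1 and -0.71 against Control 2. The other 5 Fzd3 probe sets lay between -0.17 and 0.30. Fzd1 had 0.58, Fzd9 0.33, and Fzd5 0.33 and -0.63 with its 2 probe sets. The co-receptors Lrp5 and Lrp6, which commit the signal to β-catenin, had -0.06 and 0.13. Lrp6 read 3.63 (Control 1), 3.87 (Control 2), 4.12 (TCQA 1) and 3.63 (TCQA 2), so that TCQA 2 was level with Control 1 and TCQA 1 was above both controls.

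**Figure D2:**
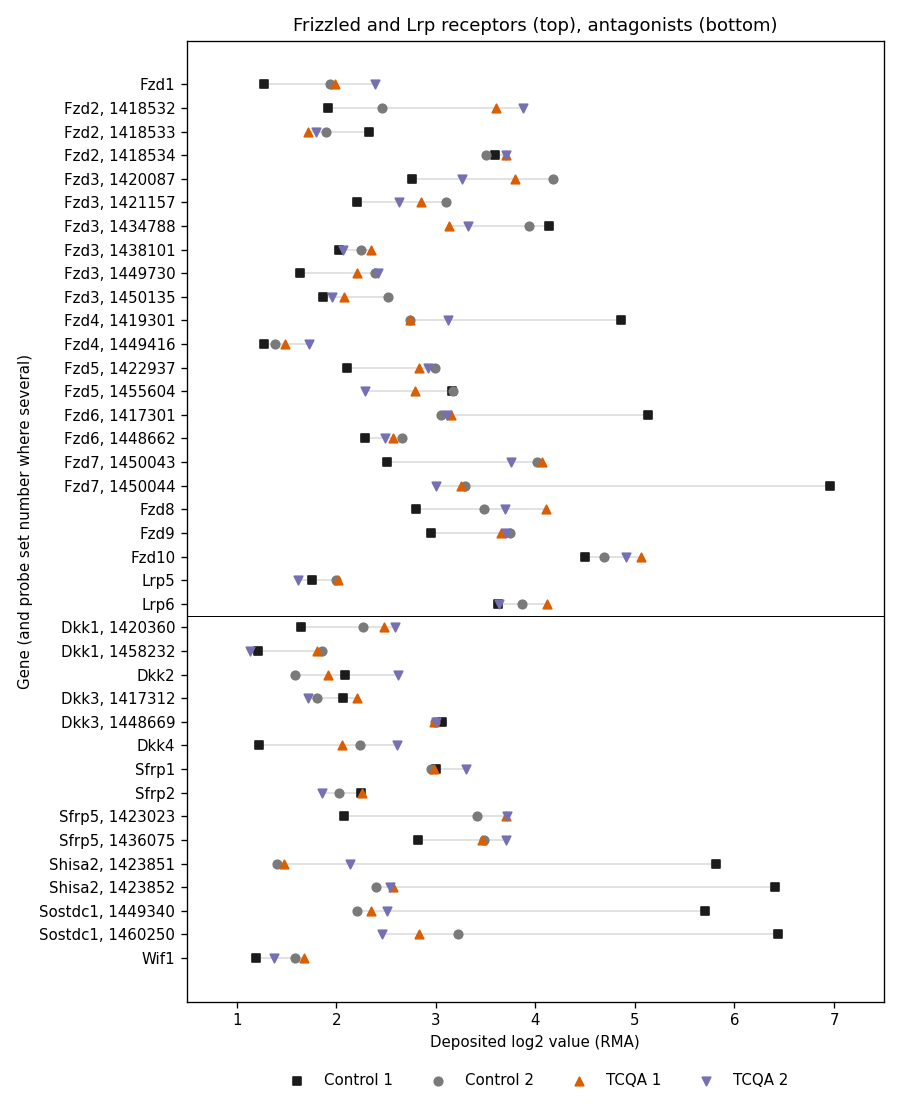
Deposited log2 value (x axis) of the 23 receptor and 15 antagonist probe sets on each of the 4 arrays, with 1 symbol per array. Both TCQA symbols of Fzd2 (1418532) lie at 3.60 and 3.88, above both controls, whereas for Shisa2 (1423852) Control 1 lies at 6.40 and the other 3 arrays between 2.40 and 2.57.

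Among the antagonists, Sostdc1 and Shisa2 had the lowest log2 fold changes of all Wnt genes except Fzd7, and in each case Control 1 held the high value. Sostdc1, also called ectodin or Wise, which binds Lrp co-receptors and bone morphogenetic proteins in hair follicle and tooth, read 6.44 (Control 1), 3.22 (Control 2), 2.83 (TCQA 1) and 2.46 (TCQA 2) with 1460250_PM_at. Its log2 fold change ± standard error was -2.18 ± 1.13 (limma, adjusted p = 0.923), and both TCQA arrays were below both control arrays. With 1449340_PM_at it had 5.70, 2.21, 2.35 and 2.51 and a log2 fold change of -1.52, but here both TCQA arrays were above Control 2. Shisa2 had 6.40, 2.40, 2.57 and 2.54 with 1423852_PM_at, a log2 fold change ± standard error of -1.85 ± 1.37 (limma, adjusted p = 0.923). With 1423851_PM_a_at it had 5.81, 1.40, 1.47 and 2.14, a log2 fold change of -1.80. With both probe sets the TCQA arrays were above Control 2, by 0.15 and 0.40 in the mean. On Control 1 the probe set 1423851_PM_a_at exceeded 94.1% of all probe sets, and on Control 2, TCQA 1 and TCQA 2 it exceeded 5.00%, 7.04% and 34.0%. Control 1 was also the highest array for all 5 keratinocyte and all 5 muscle markers, 4 of 6 fibroblast markers and 65 of 66 ribosomal protein genes, and their part in the differences of Sostdc1, Shisa2, Fzd4, Fzd6, Fzd7 and Wnt4 was not tested.

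Sfrp5, which binds Wnt ligands, read 2.08 (Control 1), 3.42 (Control 2), 3.71 (TCQA 1) and 3.71 (TCQA 2) with 1423023_PM_at. Both TCQA arrays were above both control arrays, and the log2 fold change ± standard error was 0.96 ± 0.55 (limma, adjusted p = 0.923). Against Control 2 the TCQA mean was 0.29 higher, and the other Sfrp5 probe set had a log2 fold change of 0.43. Sfrp1 and Sfrp2, antagonists made by fibroblasts, had 0.16 and -0.08. Dkk1, the best known Dkk inhibitor of Lrp6, read 1.65 (Control 1), 2.27 (Control 2), 2.48 (TCQA 1) and 2.59 (TCQA 2) with 1420360_PM_at and a log2 fold change of 0.58, and -0.06 with its other probe set. Dkk4, which is made in hair placodes, had 0.60, Dkk2 0.43, Wif1 0.14, and Dkk3 0.02 and -0.04.

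Against each control array on its own, the Wnt genes gave different counts. The TCQA mean was above Control 1 for 53 of 71 probe sets (74.6%, beside 66.3% of all probe sets) and above Control 2 for 37 (52.1%, beside 46.7% of all). A difference of 1 or more on the log2 scale from Control 1 was reached upward by 9 Wnt probe sets, or 12.7% beside 12.9% of all, and downward by 8, or 11.3% beside 17.9% of all. From Control 2 it was reached upward by 1, Fzd2 with 1418532_PM_at, where 0.16% of all probe sets did, and downward by 0, where 0.375% of all did. The 8 below Control 1 were both probe sets of Sostdc1 and Shisa2 and 1 each of Wnt4, Fzd4, Fzd6 and Fzd7, and their differences from Control 2 lay between -0.57 and 0.40. The 9 above Control 1 were 1 each of Wnt1, Wnt2b, Wnt7b, Fzd2, Fzd7, Fzd8, Rspo2, Dkk4 and Sfrp5, and their differences from Control 2 lay between -0.11 and 1.28. The farthest below Control 2 was Wnt7a with 1423367_PM_at, at -0.87, which read 2.50 (Control 1), 3.78 (Control 2), 3.34 (TCQA 1) and 2.49 (TCQA 2). Of the 71, 0 lay 1 or more above one control array and 1 or more below the other. Both comparisons use the same TCQA arrays.

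The choice of control array decided the limma calls. When Control 2 was left out, limma called 5 Wnt probe sets higher and 8 lower by its adjusted p, while 7.34% of all probe sets were called higher and 16.1% lower. The 5 were those of Wnt2b, Fzd2, Fzd7, Rspo2 and Sfrp5 with 1 probe set each, and the 8 were those named above as 1 or more below Control 1. In that fit the lone control array was assumed to vary like the TCQA arrays. When Control 1 was left out, 0 were called by limma and Fzd2 alone passed the thresholds of the study, at 1.28. The adjusted p of Fzd2 with 1418532_PM_at ranged from 0.012 without Control 2 to 1.00 with any other array left out or with the replicate block, and lay from 0.888 to 0.954 over the normalizations, variance settings and crossed pairing tried.

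**Figure D3:**
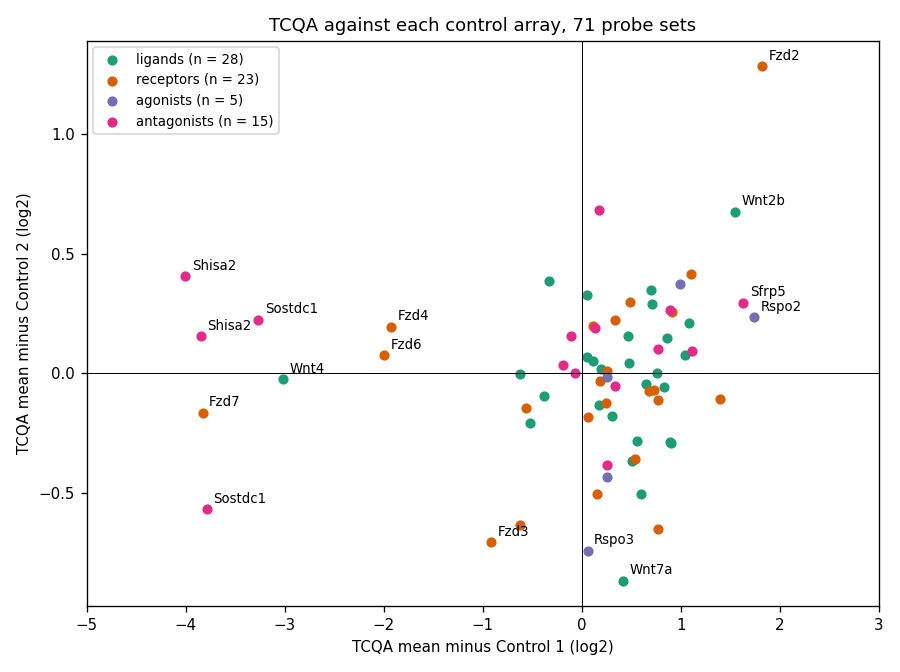
Mean of both TCQA arrays minus Control 1 (x axis) and minus Control 2 (y axis), in log2 units, for the 71 Wnt probe sets. Each point is 1 probe set, coloured by role, where agonists are the R-spondins. Fzd2 is 1.82 from Control 1 and 1.28 from Control 2, and the points on the far left (Shisa2, Sostdc1, Fzd7 and Wnt4) lie between -0.57 and 0.40 from Control 2.

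For the difference of group means, probe sets of the same Wnt gene shared a sign about as often as those of all genes. Of 21 Wnt genes with 2 or more probe sets, 10 had log2 fold changes of one sign (47.6%) and 11 of both signs, and over all 7180 genes with several probe sets 50.2% had one sign. Against Control 1 alone the sign was shared in 13 of the 21 genes (61.9%, beside 54.3% of all genes), and against Control 2 alone in 12 (57.1%, beside 38.7% of all genes). The 10 genes were Wnt4, Wnt5a, Wnt5b, Wnt6, Wnt7b, Wnt8b, Wnt9b, Sfrp5, Shisa2 and Sostdc1. None of the 6 Frizzled genes with several probe sets was among them. The median distance between the lowest and highest log2 fold change of a gene was 0.53. It was 1 or more in 6 genes, at 2.64 for Fzd7, 1.91 for Fzd2, 1.16 for Wnt4, 1.14 for Fzd4, 1.12 for Fzd3 and 1.02 for Fzd6. It was smallest for Wnt8b, Wnt5a, Wnt5b, Shisa2 and Dkk3, where it was at most 0.06. For Fzd7, Fzd4, Fzd6 and Wnt4 the probe set at the lower end was the one that was high on Control 1 alone.

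**Figure D4:**
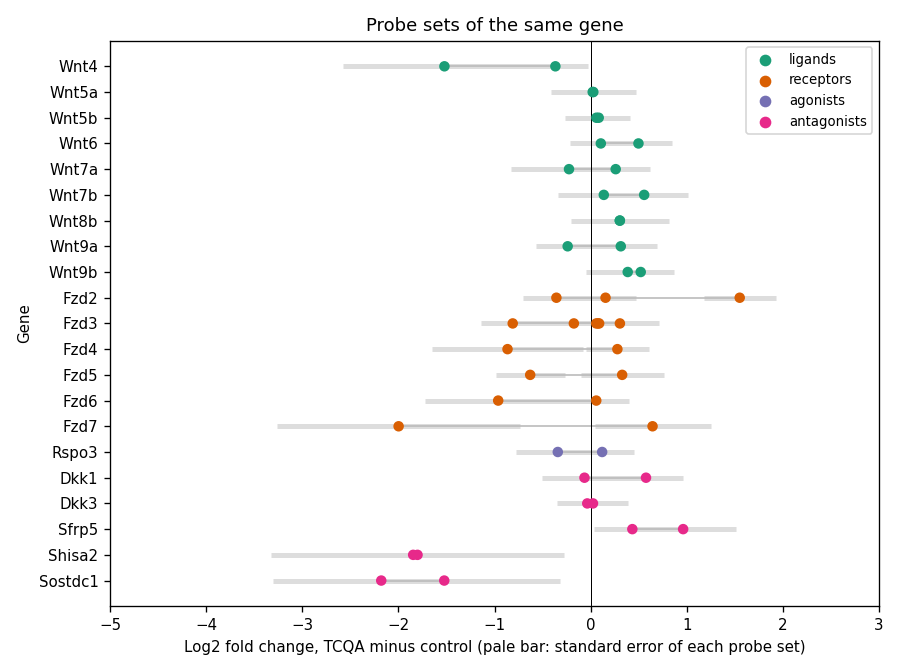
Log2 fold change, TCQA minus control (x axis), of each probe set of the 21 Wnt genes with 2 or more probe sets. Each point is 1 probe set, the pale bar its standard error from limma and the thin line the span of the gene. Both Shisa2 points lie at -1.85 and -1.80, while Fzd2 spans from -0.36 to 1.55.

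Other genes of the pathway were read from 2 lists. Of 18 measured genes for secretion of Wnt proteins and their reception at the cell surface, with 30 probe sets, 16 probe sets were positive and 14 negative, and the median log2 fold change was 0.01. Over all probe sets 61.0% were positive and the median was 0.12. Both TCQA arrays were above both controls for 4 of the 30 and below both for 7, beside 17.9% and 10.9% of all probe sets. Wls, which carries Wnt proteins to the cell surface, had the largest differences on this list. Its probe set 1423824_PM_at read 4.95 (Control 1), 2.15 (Control 2), 1.52 (TCQA 1) and 1.62 (TCQA 2), a log2 fold change ± standard error of -1.98 ± 0.98 (limma, adjusted p = 0.923). Another, 1437434_PM_a_at, had 5.33, 2.43, 1.98 and 2.25 and a log2 fold change of -1.76. The remaining Wls probe set, 1423825_PM_at, had 4.02, 2.60, 2.46 and 2.17 and a log2 fold change of -0.99. With each Wls probe set both TCQA arrays were below both controls. Of 18 measured genes inside the cell, with 44 probe sets, 22 were positive and 22 negative, with a median of 0.01. Both TCQA arrays were above both controls for 7 of the 44 and below both for 7. Csnk1a1, the casein kinase that starts the phosphorylation of β-catenin, had 7.44, 1.81, 1.87 and 1.78 with 1428537_PM_at and a log2 fold change of -2.80. Its other 3 probe sets had -2.45, -0.11 and 0.55. Ctnnb1, β-catenin itself, had -2.65 with 1420811_PM_a_at, and -1.68 and -0.19 with its other 2 probe sets. Against Control 2 the differences were 0.01 for Csnk1a1 (1428537_PM_at) and 0.35 for Ctnnb1 (1420811_PM_a_at). In each list 0 probe sets passed limma at an adjusted p of 0.05 and 0 reached the thresholds of the study, and without Control 2 the first number was 8 (26.7%) for the cell surface list and 14 (31.8%) for the list inside the cell, beside 23.4% of all probe sets.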

How the data were processed

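RNA of dorsal skin was hybridised to 4 Affymetrix mouse PM arrays, and the authors deposited the log2 signal of each probe set. The submitters' processing notes name RMA, Affymetrix Expression Console and Transcriptome Analysis Console. RMA corrects background, normalizes and summarises probes, but the deposited arrays did not share a common distribution. Over all probe sets the medians were 2.30 (Control 1), 2.55 (Control 2), 2.54 (TCQA 1) and 2.49 (TCQA 2). The highest values were 11.75, 12.53, 12.56 and 12.4 in the same order, and the reason was not tested. The levels of different probe sets are not comparable, and precision is limited by the number of arrays. Of 45141 probe sets, 104 Affymetrix controls were left out. Genes were assigned from the platform annotation (551 name several genes and 15588 are not listed), and all 71 Wnt probe sets had a gene ID in the RefSeq table. Groups were compared with limma 3.58.1 (R 4.3.3, lmFit and eBayes, unpaired, two-sided, Benjamini-Hochberg over 45037 probe sets), on values as deposited, after a test on simulated data. The simulated data took their means and spreads from Control 2, TCQA 1 and TCQA 2, so the test does not cover the spread that Control 1 adds. The members, the lists and the rule for named genes were chosen with earlier results of these data known. Named are all probe sets of Fzd2, those at the thresholds of the study, the 3 largest log2 fold changes and the 2 largest without overlap in each role, any Wnt probe set 1 or more above one control array and 1 or more below the other, the 5 Wnt probe sets with the highest median, and the 2 largest of each other list. Values of Wnt4 (1441687_PM_at), Wnt7a, Fzd3, Fzd4, Fzd8, Lrp6, Dkk1 and Sostdc1 (1449340_PM_at) on each array were chosen for print after they were seen. For marker genes the brightest probe set was used, by its mean over the 4 arrays with Control 1 among them. Alternatives were quantile normalization, centring, a filter on dim probe sets, 1 probe set per gene, leaving out probe sets with an _s_at or _x_at suffix, unmoderated and trended variances, the replicate number as a block and each array left out.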

Additional observations from a re-analysis of the deposited data

How the results depend on the processing

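The 4 arrays were refitted under each alternative, and no limma call was made under quantile normalization, centring, unmoderated or trended variances. With the replicate block, which could not show whether the numbers pair the arrays (the correlation of the deviations was -0.124 over 2 pairs), 0 Wnt probe sets were called at an adjusted p under 0.05 and 1 passed the thresholds of the study. A crossed pairing, chosen after seeing the data, gave 0 and 1 as well. At these thresholds 2 Wnt probe sets were higher after quantile normalization and 2 after centring (Fzd2 and Wnt2b), and 0 with 1 probe set per gene. Without probe sets below the median brightness the median log2 fold change was 0.98 for the R-spondins, -0.78 for the antagonists, -0.32 for the cell surface list and -0.22 for the list inside the cell, 7 Wnt probe sets had TCQA above both controls and 5 genes shared one sign. With 1 probe set per gene these medians were 0.40 for the R-spondins and 0.15 for the antagonists, and 7 probe sets had TCQA above both controls. In both settings probe sets were chosen by their mean over all 4 arrays. A probe set high on Control 1 alone could thus be kept through that array. The filtered R-spondin median of 0.98 equals the log2 fold change of Rspo2. Both settings leave fewer probe sets in each list, so these medians do not describe the classes, and the cause was not tested further.

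Leaving out each array in turn gave from 0 to 10538 calls over all probe sets and from 0 to 13 among the Wnt probe sets, with from 0 to 8 on the cell surface list and from 0 to 14 inside the cell. All calls came without Control 2. The thresholds of the study were passed by 0 to 9 Wnt probe sets on the higher side and by 0 to 8 on the lower, with the most without Control 2 (12.7% beside 12.3% of all probe sets, and 11.3% beside 17.7%). The median log2 fold change ranged from -0.0013 to 0.49 for the ligands, from -0.07 to 0.25 for the receptors, from -0.02 to 0.26 for the R-spondins, from -0.024 to 0.15 for the antagonists and from -0.17 to 0.13 for the cell surface list. From 19 to 44 Wnt probe sets (26.8% to 62.0%) then had TCQA above and from 10 to 22 (14.1% to 31.0%) below the control arrays, beside 27.2% to 59.8% and 18.9% to 33.8% of all probe sets. Of the 24 named probe sets 8 changed sign, 7 of them without Control 1. The log2 fold change ranged from -0.29 to 0.90 for Wnt3a, -2.00 to 0.075 for Fzd6 (1417301_PM_at), -0.11 to 1.40 for Fzd7 (1450043_PM_at), -0.74 to 0.057 for Rspo3 (1443187_PM_at), -4.01 to 0.40 and -3.85 to 0.15 for Shisa2, -5.61 to 0.015 for Csnk1a1 and -5.65 to 0.35 for Ctnnb1. Rspo3 changed sign without Control 2. None of the 24 changed sign after quantile normalization or centring, but the sizes of some moved. After quantile normalization the log2 fold change was 1.24 for Wnt7b (1420892_PM_at, 0.56 as deposited) and 1.05 for Fzd10 (0.39 as deposited). It was -1.43 for Ctnnb1 (1420811_PM_a_at, -2.65 as deposited).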
